A study of Mus musculus with 12 samples.

Results

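Expression was followed as an ordered series over 4 passages of one transplanted mouse melanoma, with F0 scored 1, N2.1 scored 2, Balb/c-2 scored 3 and CBA scored 4. All 12 tumours of the series were used, 3 per passage. YUMM1.7 is a melanoma line made from a C57BL/6 mouse whose melanocytes carry mutant Braf and lack Cdkn2a. The labels call the F0 hosts syngeneic with this line. Grown tumours were then broken up and their cells moved into a further mouse, again and again. N2.1 is listed after F1 and F2, Balb/c-2 after N2.2, N2.3 and Balb-c1, and CBA as the last. N2.1, Balb/c-2 and CBA are therefore descendants of F0 cells, separated by passages that were not sequenced. The labels give no genotype, age or treatment of the hosts, and show a strain only through the passage names Balb/c-2 and CBA. All 4 groups share the line's starting mutations, and the 4 passages are 1 lineage of transfers, so tumours of a passage show the spread between tumours and not between independent lineages. The labels do not say whether tumours A to C of a passage grew in different mice.

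A tumour passed from host to host is a bulk mixture of melanoma cells, host immune cells, vessels and stroma. Serial transfer can select among tumour cell variants, and hosts that differ from the tumour at histocompatibility genes recognise its antigens. A change that accumulates over such transfers would give an ordered series of levels, while a change tied to 1 host or 1 passage would give a peak or a dip. In bulk tissue, fewer cells of a type and less RNA per cell cannot be told apart.

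The label melanoma was checked against pigment cell markers. Tyr, Dct and Mlana, which encode melanosome enzymes and an antigen of pigmented cells, were at or near 0: the highest value in any tumour was 7.44, for Dct in Balb/c-2 A. Pmel, a melanosome fibre protein, lay between 12.5 and 59.6. Mitf, the master regulator of the melanocyte lineage, lay between 318 and 1290, and Sox10, a neural crest factor upstream of it, between 0.954 and 178. The mesenchymal gene Vim and the receptor gene Axl, marks of dedifferentiated melanoma, were detected in every tumour. Bulk values do not tell whether tumour or host cells expressed them, so their detection does not bear on the label.

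Depth ran from 34721735 to 59404254 reads per tumour, and values are reads scaled by the authors, with 1 read worth 0.8266 to 1.2451. Some tumours stood apart. F0 B lay farthest from the rest on the first principal component (−113.0, against −67.5 to 84.2 elsewhere). Balb/c-2 A had a summed level of 95212 over the B and plasma cell markers, against 878 to 7306 in the others. Xist, which silences an X chromosome in females, reached 1396 in F0 C, 8911 in Balb/c-2 B and 1051 in CBA B, and at most 18.9 in the others. Ddx3y, a Y-linked helicase gene, was 272 in CBA B and 1336 to 3907 elsewhere. Flow cell went partly with the order: F0, N2.1 and Balb/c-2 A were on the first flow cell (7 tumours), and Balb/c-2 B, Balb/c-2 C and CBA on the second (5 tumours).

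Few genes followed the order as a straight line. The filter asked for 10 or more scaled reads in no fewer than 3 tumours and left 17491 genes, of which limma called 353 (2.02%) for a linear trend of log2(value + 1) on the score, at a Benjamini-Hochberg adjusted p under 0.05. Among them 154 rose (0.88%) and 199 fell (1.14%). The median slope, the change in log2(value + 1) from 1 sequenced passage to the next, was 1.17 for the rising genes and −1.03 for the falling genes, against −0.03 over all genes tested. Values of F0 and CBA tumours did not overlap in any of the 353 genes, against 29.47% of all genes tested. F0 and CBA hold the end scores of the same fit, so this separation largely follows from the call and is no separate evidence. At the edge of the call, Kifc3 and Ppp3cb both had an adjusted p of 0.0497, and Itpka (0.051) and Tmem200b (0.0512) lay just outside. The number of calls moved with single tumours: dropping F0 A, B or C left 162, 183 and 232 calls, and dropping CBA A, B or C left 125, 230 and 200.

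The sizes of the steps differed between rising and falling genes. The median steps in log2(value + 1), from F0 to N2.1, N2.1 to Balb/c-2 and Balb/c-2 to CBA, were 0.42, 1.3 and 0.47 in the rising genes and −0.55, −0.89 and −0.97 in the falling genes. The largest of the 3 steps was from N2.1 to Balb/c-2 in 84 of the 154 rising and 93 of the 199 falling genes. It was from F0 to N2.1 in 52 rising and 45 falling genes, and from Balb/c-2 to CBA in 18 rising and 61 falling genes. The N2.1 to Balb/c-2 step is also where the flow cell changes for 2 of the 3 Balb/c-2 tumours. With the flow cell as a term in the model, 15 genes were called, 11 of them among the 353. All 353 slopes kept their direction in that fit, with a median size of 0.89 against 1.09, and 236 had an unadjusted p under 0.05. The median standard error was 1.79 times as large, since flow cell and score overlap. Within the first flow cell alone, 348 of the 353 genes sloped the same way (median size 0.929) and 137 genes were called, 20 of them shared. The 353 genes were chosen for their slopes in these same tumours, so shared direction in both fits follows largely from that choice. It does not separate passage from flow cell. Within the second flow cell alone, which holds tumours of Balb/c-2 and CBA, limma called 0 genes, with 1175 at an unadjusted p under 0.05.

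**Figure D1:**
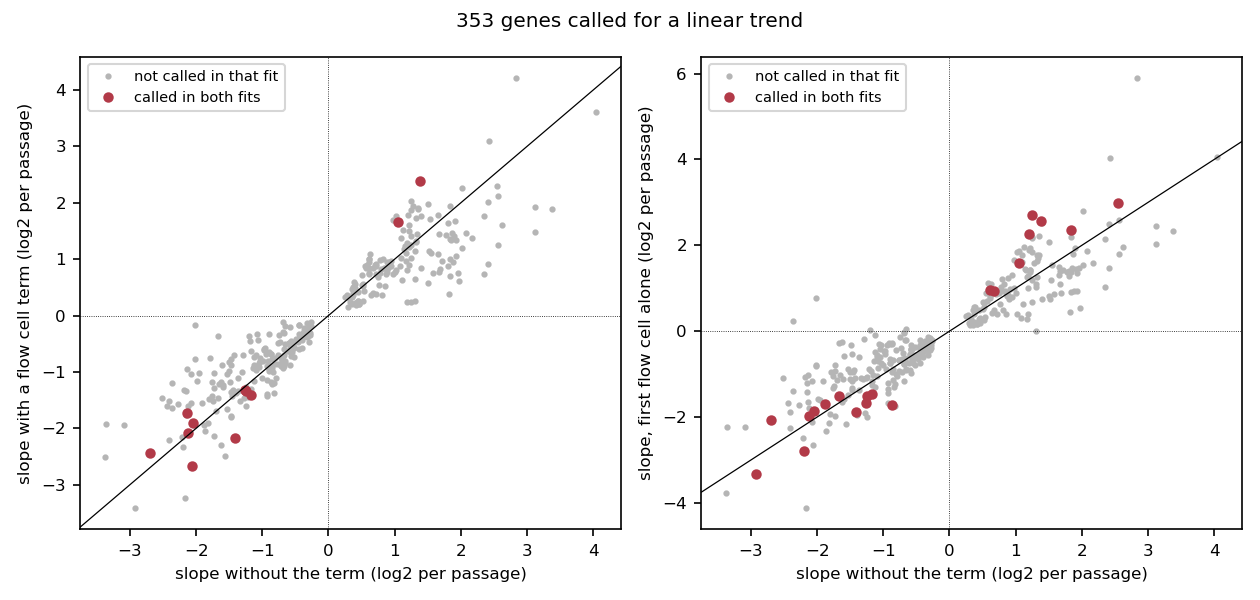
Slopes of the 353 genes called for a linear trend, in log2 of value + 1 per passage, plotted against the slope with a flow cell term (left) and within the first flow cell alone (right). Each point is a gene, red where it was called in both fits, and the solid line marks equal slopes. All 353 points keep their sign on the left and 348 on the right, in tumours that also served to choose the genes.

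The 4 means rose at every step in 690 genes (3.94%) and fell at every step in 1018 genes (5.82%), and 210 of the 353 called genes belonged to these groups. A stricter count asked that no tumour of a passage overlap the passage before it. Only 1 gene rose in this way (0.00572%) and 15 fell (0.0858%); after quantile normalization the counts were 4 rising and 9 falling, with 8 genes in common. The 15 falling genes were Scarf2, Epb41l3, Adra1d, Ociad2, Adamts2, Zfp503, B3galnt1, Tril, Gm7324, Sox12, Casc4, Bhlhb9, Zcchc3, Fjx1 and Gm26694. Gm7324 was not called for the trend (adjusted p 0.0641).

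Zfp503, a zinc-finger repressor of transcription in development, had the smallest adjusted p of all genes. Its values were 2788, 3724 and 2465 in F0, 1072, 1043 and 883 in N2.1, 193, 275 and 122 in Balb/c-2, and 65.0, 42.7 and 29.9 in CBA. Every tumour lay below every tumour of the passage before it. The slope was −2.05 ± 0.12 (SE) per passage with a limma adjusted p of 1.77e-06, and −1.91 with the flow cell term (adjusted p 0.00461). Zfp503 lies on chromosome 14 at 21983959 to 21989601 (mm10).

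Epb41l3, a membrane-cytoskeleton adaptor of the protein 4.1 family, read 2420, 3847 and 2330 in F0, 982, 1403 and 1082 in N2.1, 133, 413 and 97.8 in Balb/c-2, and 49.6, 33.2 and 31.1 in CBA. Casc4, a Golgi membrane protein gene, went from 746, 1845 and 674 in F0 through 246, 613 and 337 in N2.1 and 88.5, 60.7 and 39.5 in Balb/c-2 to 13.5, 14.2 and 8.72 in CBA. Fjx1, related to the fly Golgi kinase gene four-jointed, fell from 720, 689 and 831 to 1.8, 0 and 4.98. All 3 genes descended without overlap, with slopes of −2.13 ± 0.16 for Epb41l3 and −2.70 ± 0.20 for Fjx1 and an adjusted p of 1.79e-05 each.

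Adamts2, the enzyme that trims the amino end of procollagens, read 4723, 9048 and 5157 in F0, 2160, 2561 and 2392 in N2.1, 1487, 1769 and 1234 in Balb/c-2, and 503, 256 and 447 in CBA. Efemp1, which encodes the matrix protein fibulin-3, fell with a slope of −1.09 ± 0.10, from a mean of 6348 ± 683 (SD, n = 3) in F0 to 755 ± 94.5 in CBA. N2.1 B, at 6206, lay within the F0 range of Efemp1. B3galnt1, a glycosyltransferase that makes globoside, went from 1279, 1443 and 1280 in F0 to 101, 126 and 105 in CBA. The summed fibroblast and matrix markers ranged from 679855 to 1019707 in F0, 628477 to 890175 in N2.1, 369252 to 554631 in Balb/c-2 and 532807 to 929667 in CBA, and their part in these falls was not tested. Of the 26 markers limma and edgeR called 0 for the trend, DESeq2 called 1 fall (Loxl1), and 7 sloped down at an unadjusted p under 0.05.

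The only gene to rise without overlap at any step was Dlx4, a homeobox transcription factor, which the naming rule did not pick and which was taken after its values were seen. Its values were 4.44, 3.82 and 1.93 in F0, 8.52, 9.17 and 8.13 in N2.1, 24.8, 20.5 and 26.6 in Balb/c-2, and 60.4, 67.6 and 69.7 in CBA. The level was low throughout, and the slope was 1.33 per passage (adjusted p 0.000351).

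Cadm4, a cell adhesion molecule of the immunoglobulin family, rose from 341, 144 and 168 in F0 through 386, 412 and 461 in N2.1 to 2860, 994 and 2582 in Balb/c-2 and 2959, 2247 and 2737 in CBA. F0 and N2.1 tumours stayed below 500 and all later tumours lay between 994 and 2959, so Balb/c-2 and CBA overlapped. The slope was 1.33 ± 0.15 (adjusted p 0.000515; 0.0957 with the flow cell term). Inava, a regulator of innate immune signalling and epithelial junctions, went from a mean of 57.4 ± 38.8 (SD, n = 3) in F0 to 929 ± 619 in CBA, where CBA B reached 1640. Pla2g16, a phospholipase gene active in fat cells, rose from a mean of 1635 ± 337 in F0 to 7124 ± 3271 in CBA. Adipocyte markers summed to 9994 to 14968 in F0, 21323 to 57421 in N2.1, 20028 to 88470 in Balb/c-2 and 8713 to 13268 in CBA, and their part in the Pla2g16 values was not tested.

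Other steep rises need care over what was counted. Serpina1d, one of several nearly identical alpha-1 antitrypsin genes, went from 14.4, 8.59 and 4.82 in F0 to 178, 85.4 and 176 in CBA. Rps3a3, a copy of a ribosomal protein gene, went from 199, 91.6 and 188 to 3785, 7229 and 3089. Reads of such copies can be shared with their relatives, so both values are uncertain. Trim54, a muscle ubiquitin ligase gene, rose with a slope of 2.02 ± 0.41 by limma and was not called by edgeR (adjusted p 0.0696). The summed skeletal muscle markers ranged from 423 to 7743 in F0, 332 to 14072 in N2.1, 2262 to 16883 in Balb/c-2 and 295 to 759 in CBA, and their part in the Trim54 values was not tested. The call of Trim54 was lost without F0 A, F0 B, CBA A or CBA C (adjusted p up to 0.0754), and that of Insrr, an orphan receptor of the insulin receptor family, without F0 A or any CBA tumour (up to 0.102).

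**Figure D2:**
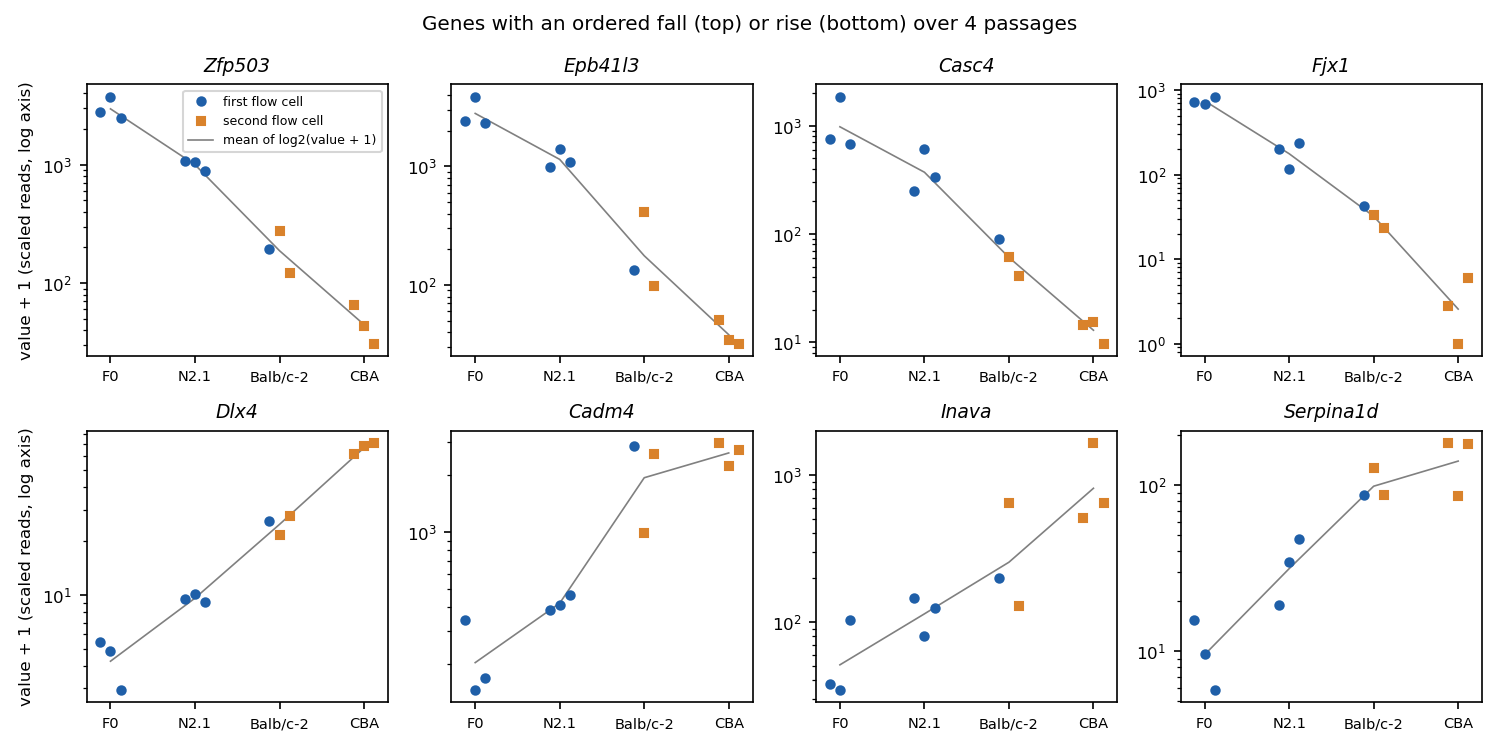
Value + 1 in each of the 12 tumours on a log axis, for 4 genes that fell (top) and 4 that rose (bottom), with circles for the first and squares for the second flow cell and a line through the passage means of log2(value + 1). Zfp503, Epb41l3, Casc4, Fjx1 and Dlx4 show no overlap between neighbouring passages, while Cadm4, Inava and Serpina1d do.

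Several called genes switched between N2.1 and Balb/c-2 and then stayed. Rasgrf1, an exchange factor that activates Ras, read 1427, 1770 and 1089 in F0 and 3016, 6172 and 2848 in N2.1, then 10.7, 6.53 and 9.44 in Balb/c-2 and 5.41, 4.74 and 1.25 in CBA. Its N2.1 values were above F0, so the 4 means departed from a line (adjusted p 0.000183) although the trend was called by limma (slope −3.36 ± 0.52, adjusted p 0.00515). edgeR did not call its trend (adjusted p 0.0663), and DESeq2 gave it no adjusted p. Foxf2, a forkhead factor of mesenchyme, was 306, 284 and 266 in F0 and at 0 in all CBA tumours, at least 85.7-fold lower against a floor of 3 reads per library. Col4a6, a basement membrane collagen chain, had a mean of 858 ± 654 (SD, n = 3) in F0 and was at 0 in all Balb/c-2 tumours, at least 328-fold lower by the same floor. Tfap2b, an AP-2 factor of the neural crest, fell in a more graded way, from 2362, 5370 and 2475 in F0 through 434, 948 and 474 in N2.1 to 19.8, 84.0 and 110 in Balb/c-2 and 1.8, 168 and 0 in CBA.

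Zfp977, Zfp936 and Zfp985, zinc-finger genes with close relatives beside them, were at most 3.61 in every F0 and N2.1 tumour. In the Balb/c-2 and CBA tumours Zfp977 lay between 90.9 and 149, Zfp936 between 62.5 and 172, and Zfp985 between 154 and 476. Near-identical copies can share reads of these 3 genes. All 3 stayed under 10 in F0 and N2.1, so they passed the filter only through Balb/c-2 and CBA tumours. Of 361 tested genes named Zfp and a number, 5 rose and 8 fell by limma, against 0.88% and 1.14% of all genes tested.

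Germline and cancer-testis genes are normally silent outside the germ line. Of 35 listed, 30 were among the deposited genes and 15 passed the filter. Among these 15, 3 rose and 0 fell by limma. Morc1 and Magea3 stayed under 10 in every F0 and N2.1 tumour, so they passed the filter only through Balb/c-2 and CBA tumours. The share called among the 15 therefore cannot be set against the 0.88% and 1.14% of all genes tested. In this list 5 rose and 1 fell at an unadjusted p under 0.05, edgeR called 1 rising, and DESeq2 3 rising and 1 falling. Over all 17491 genes tested, edgeR called 245 and DESeq2 967 in either direction. Counts by these tools, here and in the other lists, are to be read against those numbers. Counts at an unadjusted p under 0.05 stand without a share over all genes and are not read as an excess. Morc1, a silencer of transposons in male germ cells, was at most 7.77 in F0 and N2.1 and lay between 576 and 1058 in Balb/c-2 and CBA. Magea3, a melanoma antigen family gene on the X chromosome, was at most 9.64 before Balb/c-2 and 134 to 675 afterwards. Rhox5, an X-linked homeobox gene of the reproductive tract, was 42.2, 19.1 and 47.2 in F0 and 0, 6.11 and 11.7 in N2.1, then 10017, 2507 and 9505 in Balb/c-2 and 4668, 18827 and 4894 in CBA. All 3 departed from a line as well, and their calls were lost on leaving out CBA A (adjusted p 0.0524 for Morc1, and up to 0.0779 for Magea3 and 0.0868 for Rhox5 over all leave-outs, also without F0 B and CBA C, and for Rhox5 without F0 A or CBA B). Hormad1, a meiotic chromosome axis gene, had another shape: 269, 455 and 715 in N2.1 and at most 4.96 elsewhere (departure adjusted p 0.000269).

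Imprinted genes, expressed from 1 parental copy, gave 2 falls and no rise among 25 tested by limma, against 1.14% of all genes tested falling. edgeR called 1 fall, and DESeq2 4 falls and 1 rise. The limma slopes gave 6 falls and 2 rises at an unadjusted p under 0.05. Grb10, an adaptor that restrains insulin receptor signalling, was 7458, 16548 and 6908 in F0, 628, 330 and 473 in N2.1, 537, 502 and 527 in Balb/c-2, and 106, 85.4 and 47.3 in CBA. It fell at the first and at the last step with a plateau between them, with a slope of −2.07 ± 0.25 (adjusted p 0.000981) and −2.67 with the flow cell term (adjusted p 0.0498). Snrpn, a splicing protein gene of an imprinted cluster, fell from 77.7, 159 and 65.5 in F0 to 0.902, 0 and 4.98 in CBA, but not in order. It was 10.4, 3.06 and 12.6 in N2.1 and higher in Balb/c-2, at 35.5, 17.7 and 15.4. Its call was lost without any 1 of 9 tumours (F0 A, F0 B, F0 C, N2.1 A, N2.1 C, Balb/c-2 C, CBA A, CBA B or CBA C; adjusted p up to 0.15).

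Neural crest and axon guidance genes, which steer migrating cells and growing axons, gave 4 falls and no rise among 26 tested by limma, with a median slope of −0.30 against −0.03 over all genes, of which 1.14% fell. edgeR called 2 falls, and DESeq2 6 falls and 1 rise, against 245 and 967 calls in either direction over all genes tested. The 4 called by limma were the receptor gene Epha7, the ephrin gene Efnb2 and the secreted guidance genes Slit2 and Slit3. Efnb2 fell once, from 1536, 3092 and 2136 in F0 to 309, 553 and 291 in N2.1, and then stayed between 258 and 426. Slit2 was 2183, 2726 and 3354 in F0, higher in N2.1 at 3695, 7177 and 3573, and 385, 551 and 387 in CBA. The calls of Efnb2 (without F0 A, F0 B, F0 C, N2.1 B, any Balb/c-2 tumour, CBA A or CBA C; adjusted p up to 0.144) and Slit3 (without CBA A, 0.052) were lost on leaving out a tumour.

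Signalling and melanoma state genes gave single calls. Wnt5a, a ligand of non-canonical Wnt signalling linked to invasive melanoma, was 1644, 1516 and 2078 in F0, 366, 316 and 254 in N2.1, and 336, 97.2 and 266 in CBA, and its call was lost without any F0 tumour or CBA B (adjusted p up to 0.116). Fzd8, a Wnt receptor, fell with a slope of −0.96 ± 0.20, and its call was lost without any F0 tumour, CBA A or CBA B (up to 0.0743). Its means were 528 in F0, 516 in N2.1, 99.1 in Balb/c-2 and 107 in CBA, a single step after N2.1. Ltbp2, a matrix protein related to the binders of latent TGF-beta, fell from a mean of 4514 ± 2814 (SD, n = 3) in F0 to 319 ± 154 in CBA. Tgfbi, a matrix protein induced by TGF-beta, had means of 48130 in F0, 44974 in N2.1, 23792 in Balb/c-2 and 24417 in CBA. It too fell mainly after N2.1, with a call lost without any F0 tumour, CBA B or CBA C (up to 0.0865). In these lists, 2 of 26 Wnt genes, 2 of 28 dedifferentiated or invasive melanoma genes and 1 of 25 TGF-beta and BMP genes fell by limma, against 1.14% of all genes tested, and none rose. edgeR called the same numbers of falls in the 3 lists and no rise. DESeq2 called 5 falls and 1 rise, 3 falls and 1 rise, and 2 falls and 2 rises in the same order. With the flow cell term 1 Wnt gene rose (Wnt7b, limma adjusted p 0.0183). The genes that define the line gave no call: slopes were 0.17 ± 0.15 for Braf (adjusted p 0.653), 0.11 ± 0.13 for Cdkn2a (0.743) and 0.18 ± 0.18 for Mitf (0.69).

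Of 43 gene lists, 34 held no gene called for the linear trend by limma. Over the 665 genes tested in those 34 lists, 58 sloped up and 46 sloped down at an unadjusted p under 0.05, edgeR called 0 and DESeq2 called 18. The median slope of 6 lists changed sign between the authors' scale, quantile normalization, edgeR and DESeq2: B and plasma cells, adipocytes, MAPK output, NRF2 targets, HOX genes and nucleic acid sensing. The authors' scale and edgeR differed by 0.04 in the median slope of all genes (−0.03 and 0.01).

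**Figure D3:**
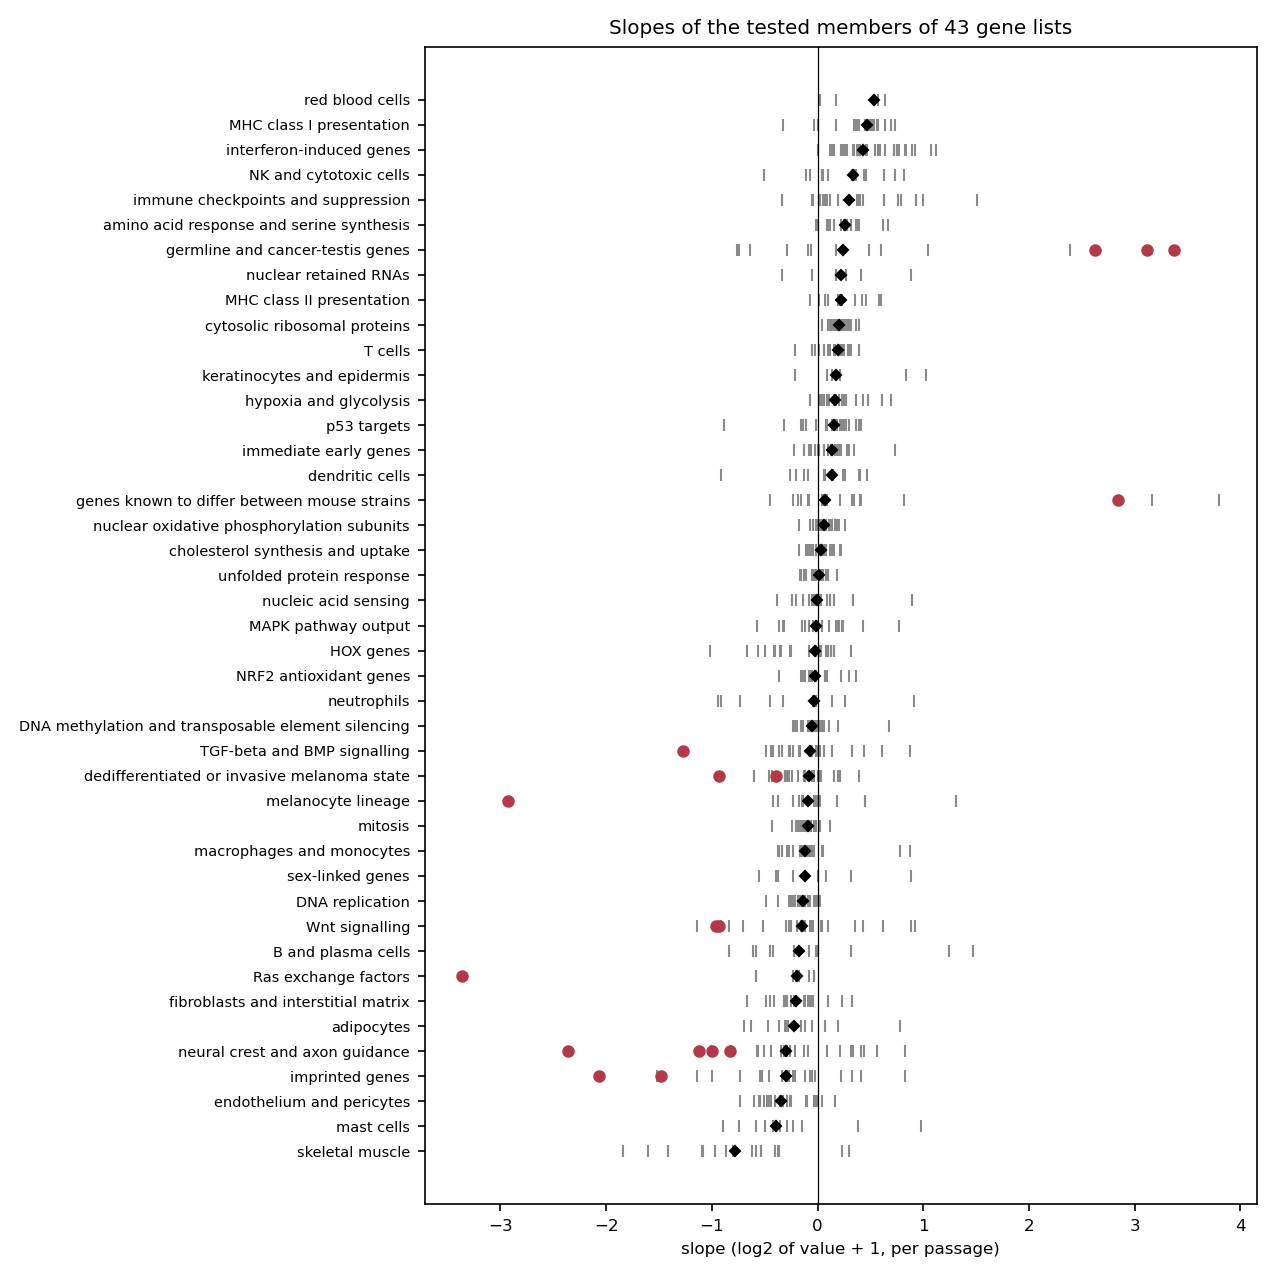
Slope per passage of every tested member of 43 gene lists, ordered by median slope, with red dots for members called for the trend, grey ticks for the others and diamonds for the medians. Called members occur in 9 lists, for example Rasgrf1 at −3.36 and Rhox5 at 3.37, while the medians lie between −0.78 and 0.54.

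The departure from a line was called for more genes than the line itself: 1210 genes (6.92%), of which 52 were also called for the trend. N2.1 was the highest passage in 657 of the 1210 and the lowest in 309. Without single tumours the count ranged from 316 (N2.1 C dropped) to 2299 (Balb/c-2 B dropped). Dropping N2.1 A or B left 362 and 567, dropping F0 A or B left 758 and 762, and dropping CBA A or C left 756 and 650.

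Cholesterol synthesis and uptake genes were at their lowest in N2.1. Of 23 tested, 13 departed from a line, against 6.92% of all genes tested, all 13 with their lowest mean in N2.1. In all, 21 of 23 were lowest there, against 26.75% of all genes tested. Idi1, an isomerase of isoprenoid synthesis, read 2404, 2621 and 2114 in F0, 330, 394 and 433 in N2.1, 2534, 1575 and 1976 in Balb/c-2, and 1603, 1705 and 1432 in CBA (departure adjusted p 0.000128). Cyp51, a sterol demethylase, and Hmgcs1, the synthase that commits carbon to the pathway, had the same shape: Cyp51 was 424 to 687 in N2.1 and 2251 to 4982 elsewhere, and Hmgcs1 was 1014 to 1049 against 2592 to 6025. The count of departures among the 23 was 9 with the flow cell term and between 8 (without N2.1 A) and 17 (without Balb/c-2 B) on leaving out single tumours. No member had an unadjusted trend p under 0.05, and limma, edgeR and DESeq2 each called 0 of the 23. Other lists moved with N2.1: 24 of 26 mitosis genes had their lowest mean there, with a summed level of 45802 to 87474 against 113239 to 158390 in F0, and macrophage and monocyte markers summed to 387674 to 408553 against 203887 to 250448. Their part in the cholesterol gene pattern was not tested.

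Interferon-induced genes had their lowest mean in F0 in 38 of 40 cases, against 24.02% of all genes tested, but did not climb in order. The medians of the 40 members relative to F0 were 2.0 in N2.1, 0.98 in Balb/c-2 and 1.70 in CBA on the log2 scale, and N2.1 was the highest passage for 28, against 29.84% of all genes. Departures numbered 12 of 40, against 6.92%. The trend was called for 0 of 40 by limma, with 17 rising and 0 falling at an unadjusted p under 0.05, 0 by edgeR and 1 (Zbp1) by DESeq2. Gbp2, an interferon-induced GTPase that attacks intracellular vacuoles, was 13322, 1465 and 12063 in F0, 146984, 125594 and 119969 in N2.1, 17714, 61413 and 44210 in Balb/c-2, and 56193, 68283 and 39488 in CBA. F0 B was the lowest tumour. The departures fell to 0 of 40 without N2.1 A or N2.1 C, 1 without N2.1 B and 5 without CBA C, and were 20 without Balb/c-2 B. Markers of immune cells moved with N2.1: summed T cell markers were 12599 to 16370 in N2.1 and 1281 to 6581 in F0, and macrophage and monocyte markers were 387674 to 408553 and 203887 to 250448. Their part in the interferon pattern was not tested.

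Cd274, B2m and H2-K1 were not called for the trend by limma. Cd274, which encodes PD-L1, was 786, 165 and 1158 in F0, 9993, 12494 and 10521 in N2.1, 2085, 19945 and 2505 in Balb/c-2, and 7786, 5799 and 4821 in CBA (trend adjusted p 0.279, departure adjusted p 0.0478). The Balb/c-2 tumours spanned nearly the whole range. B2m and H2-K1, parts of MHC class I, sloped up by 0.47 ± 0.16 and 0.53 ± 0.19 with adjusted p values of 0.162 and 0.181. Ifi44l, an interferon-induced gene in the list of genes known to differ between mouse strains, was 2.22, 0 and 0 in F0 and 867 to 1561 in all 9 later tumours, a single step called both for the trend (adjusted p 0.0473) and for departure (1.69e-05). Its trend call was lost without any 1 of 9 tumours, those of F0, Balb/c-2 and CBA (adjusted p up to 0.149).

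Stress genes of the immediate early list also peaked in N2.1. Of 24 tested, 9 departed from a line (against 6.92% of all genes), 8 of these highest in N2.1. Hspa1b, an inducible heat shock chaperone, was 24746, 11769 and 8687 in N2.1 and 443 to 2641 in the other tumours (departure adjusted p 0.000997), and Fos, a transcription factor induced within minutes of a stimulus, was 1278 to 1654 in N2.1 and 238 to 380 in F0. Departures in this list fell to 2 without N2.1 A or N2.1 C and to 4 without N2.1 B, and were 5 without F0 B, CBA A or CBA C and 15 without Balb/c-2 B. Immediate early genes also respond to tissue handling, and its part was not tested.

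Cytosolic ribosomal protein genes sloped up together but weakly. All 35 slopes lay between 0.04 and 0.39, while 7696 of all 17491 genes tested sloped up. The median slope was 0.21 (0.11 after quantile normalization, 0.26 by edgeR and by DESeq2, and 0.33 with the flow cell term). Means increased at every step in 21 of the 35, against 3.94% of all genes tested. None of the 35 was called by limma, edgeR or DESeq2, and 6 had an unadjusted p under 0.05. Rps14 went from a mean of 44946 in F0 to 95490 in CBA (adjusted p 0.264).

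**Figure D4:**
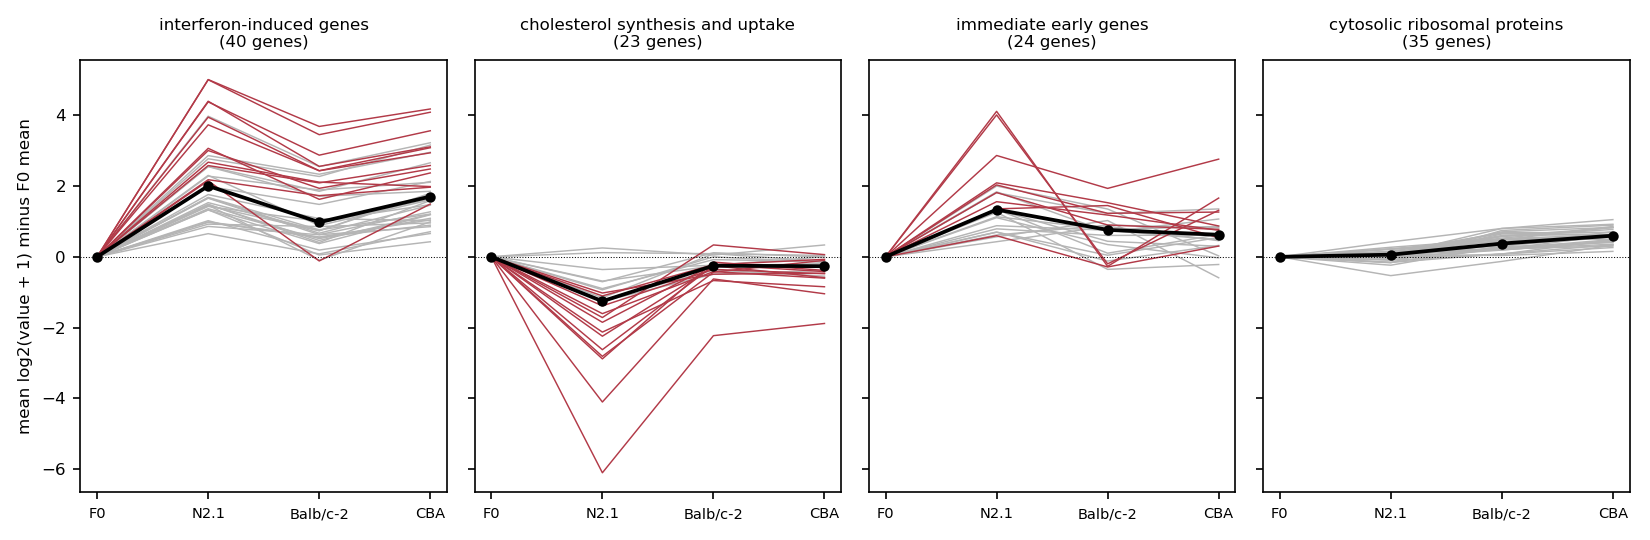
Change of each gene's passage mean of log2(value + 1) from F0, for 4 gene lists, with red lines for genes that departed from a line, grey lines for the others and a black line for the list median. Interferon-induced genes peak in N2.1 (median 2.0), cholesterol genes dip there (median −1.26), immediate early genes peak there (1.34), and ribosomal protein genes climb to 0.60 in CBA.

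Positions of the called genes were uneven. On the X chromosome 40 of 592 tested genes were called (6.76%, against 2.02% of all genes), 24 rising and 16 falling, and 16 of the 40 are predicted genes named Gm and a number. Over 1231 windows of 2 Mb with a tested gene, 5 held 4 or more called genes. On chromosome X, 148000001 to 150000000, 5 of 11 tested genes rose (Gm15127, Gm15093, Gm10439, Gm15097 and Gm15091). The promoter windows of Gm15127, Gm10439, Gm15097 and Gm15091 were near-identical. So were those of other rising Gm genes of the X chromosome, such as Gm10486, Gm10487 and Gm4836. Their transcripts were not compared, so reads shared among copies are possible, and the X share may count copies repeatedly. On chromosome 11, 50000001 to 52000000, 5 of 30 fell: Rnf130, Adamts2, Zfp354c, Zfp2 and Zfp354a. Rnf130 went from 3471 to 1860 in the means of F0 and CBA, and Zfp354a from 74.5 to 19.2. On chromosome 15, 88000001 to 90000000, 3 of 28 rose (Zdhhc25, Dennd6b and Chkb) and 1 fell (Shank3). On chromosome 18, 36000001 to 38000000, 2 of 70 rose (Pcdhb9 and 4930517L18Rik) and 3 fell (Pcdhga7, Pcdhgb6 and Pcdhga10). Pcdhga7 is annotated over 37714764 to 37841873, and its overlap with Pcdhgb6 and Pcdhga10 was not examined. Reads shared among these 3 genes are possible, so they may not be separate falls. On chromosome 1, 84000001 to 86000000, 6 of 31 rose: A530032D15Rik and the predicted genes Gm29284, Gm7582, Gm2619, Gm2427 and Gm10552.

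Further along the X chromosome, a run of neighbours taken after their values were seen fell as well. Bhlhb9 and Gprasp2, members of 1 family of G protein-coupled receptor sorting proteins, and Tceal1, a transcription elongation factor relative, start at 135797594, 135839034 and 136707982. The annotated span of Bhlhb9 ends at 135891081 and covers the start of Gprasp2, and their promoter windows were similar. Reads shared between these genes are possible, so they may not be separate falls. Arxes2 and Arxes1, also called as falling (slopes −1.59 and −1.49), lie between Gprasp2 and Tceal1 and had near-identical promoter windows. The share of tested genes called in this stretch was not computed. Bhlhb9 fell from 604, 1267 and 771 in F0 to 24.4, 3.56 and 9.96 in CBA, without overlap at any step. Tceal1 was 175, 241 and 202 in F0, 210, 168 and 181 in N2.1, 37.2, 43.9 and 12.9 in Balb/c-2, and 9.02, 10.7 and 13.7 in CBA, so it fell at the third passage. The mean over all X-linked genes sloped up by 0.05 per passage relative to all genes (permutation p 0.299, adjusted p 0.544).

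No chromosome was called for a trend of its mean level among 20 tested by a two-sided permutation test of Pearson's r over the 12 tumours. Chromosome 16 had r = −0.68 (permutation p 0.0162, adjusted p 0.324) and Spearman's rho = −0.56 (permutation p 0.0666), with a slope of −0.05 per passage and −0.02 within the first flow cell. It was the only one with an unadjusted p under 0.05. Over genes with a mean value of at least 100 alone, chromosome 6 (r = 0.84, adjusted permutation p 0.0116) and chromosome 2 (r = −0.765, adjusted permutation p 0.0308) were called, with slopes of 0.05 and −0.02 per passage.

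**Figure D5:**
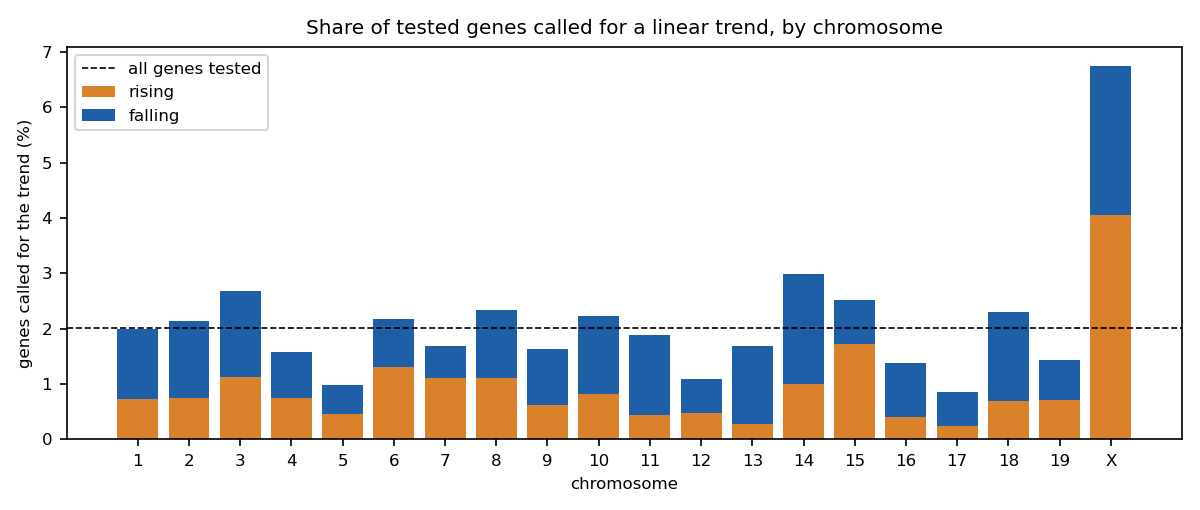
Percent of tested genes called for a linear trend on each chromosome, split into rising and falling, with a dashed line at the share over all genes tested (2.02%). Chromosome X stands at 6.76%, and the other chromosomes lie between 0.86% and 2.98%.

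Promoter windows, 250 bases before to 50 after each start in RefSeq on GRCm38.p6, were matched for 95 of 117 rising protein-coding genes. The rising genes held a median of 8 CG dinucleotides per window, against 20 in 11405 of 14033 protein-coding genes tested, and 28.4% against 63.6% were rich in CG (observed over expected above 0.6 and GC above 50%). Several windows of rising genes were near-identical copies on the X chromosome, each counted as a gene. Gm10486, Gm10487 and Gm4836 held 5 CG each, and Gm10439 and Gm15097 held 4 each. The shares without such copies were not computed. For falling protein-coding genes 142 of 184 (77.2%) had a window, under the 80% set for this check. In those windows the median was 17.5 CG and 52.8% were rich in CG, also below the values of all protein-coding genes tested. With fewer windows matched, no conclusion is drawn from them.

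The windows printed here belong to 2 genes that fell without overlap (Sox12 and Zfp503), 2 poor in CG that rose (Apol7b and Zfp985) and 1 rich in CG that rose (Cadm4); capitals mark each CG, read 5′ to 3′ on the gene's strand.
Sox12, chr2:152397997-152398296, minus strand, 47 CG: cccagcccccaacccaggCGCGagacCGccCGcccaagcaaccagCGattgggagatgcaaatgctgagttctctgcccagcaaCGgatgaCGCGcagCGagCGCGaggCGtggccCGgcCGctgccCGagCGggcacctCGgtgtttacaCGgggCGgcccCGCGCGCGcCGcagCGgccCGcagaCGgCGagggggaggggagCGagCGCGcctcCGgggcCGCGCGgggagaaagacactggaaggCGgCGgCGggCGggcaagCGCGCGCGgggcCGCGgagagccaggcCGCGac
Zfp503, chr14:21989552-21989851, minus strand, 19 CG: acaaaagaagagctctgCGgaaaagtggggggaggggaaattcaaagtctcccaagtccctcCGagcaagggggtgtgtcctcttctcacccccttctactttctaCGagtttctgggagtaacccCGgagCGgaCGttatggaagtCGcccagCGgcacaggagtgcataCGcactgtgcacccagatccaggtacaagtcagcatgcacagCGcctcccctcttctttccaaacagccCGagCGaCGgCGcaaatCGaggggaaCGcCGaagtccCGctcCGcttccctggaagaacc
Apol7b, chr15:77447411-77447710, minus strand, 2 CG: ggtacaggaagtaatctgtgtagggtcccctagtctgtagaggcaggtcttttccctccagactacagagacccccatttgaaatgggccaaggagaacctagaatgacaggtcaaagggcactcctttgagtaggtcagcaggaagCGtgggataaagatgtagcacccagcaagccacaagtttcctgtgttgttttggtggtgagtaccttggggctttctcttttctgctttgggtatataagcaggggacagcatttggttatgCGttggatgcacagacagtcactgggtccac
Zfp985, chr4:147553027-147553326, plus strand, 6 CG: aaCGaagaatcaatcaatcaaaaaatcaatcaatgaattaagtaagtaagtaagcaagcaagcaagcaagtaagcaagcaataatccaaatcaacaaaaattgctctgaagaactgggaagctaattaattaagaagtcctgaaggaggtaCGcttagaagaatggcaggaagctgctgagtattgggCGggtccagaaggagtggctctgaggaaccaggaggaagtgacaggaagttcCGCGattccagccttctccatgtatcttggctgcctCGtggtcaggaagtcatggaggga
Cadm4, chr7:24481773-24482072, plus strand, 40 CG: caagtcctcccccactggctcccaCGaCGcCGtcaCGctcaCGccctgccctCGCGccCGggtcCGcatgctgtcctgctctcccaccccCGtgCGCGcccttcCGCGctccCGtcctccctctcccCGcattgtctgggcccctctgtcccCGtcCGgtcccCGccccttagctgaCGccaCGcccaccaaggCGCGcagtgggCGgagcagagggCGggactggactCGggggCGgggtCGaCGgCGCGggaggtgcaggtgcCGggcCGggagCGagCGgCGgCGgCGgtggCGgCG

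Sox12, a SoxC factor of embryonic progenitors, fell from 1231, 2057 and 1514 in F0 through 711, 725 and 660 in N2.1 and 162, 222 and 242 in Balb/c-2 to 108, 147 and 138 in CBA. Apol7b, an apolipoprotein L family gene, rose from 24.4, 2.86 and 22.2 in F0 to 515, 518 and 279 in CBA, with Balb/c-2 tumours spread from 19.7 to 224. A match or a count of letters in a window is a description and carries no statement on methylation, which was not measured here.

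The 11 genes called both with and without the flow cell term were Bicd1, Clstn3, Grb10, Epb41l3, Adamts2, Zfp503, B3galnt1, Sox12, Casc4, Fjx1 and Has2os. Bicd1, a dynein cargo adaptor, fell from 237, 452 and 238 in F0 to 11.7, 15.4 and 8.71 in CBA. Clstn3, a calsyntenin of synapses, rose from 89.9, 148 and 75.2 to 1067, 848 and 1260. Has2os is antisense to the hyaluronan synthase gene Has2, and since the libraries' strand setting is not given its reads cannot be told from those of its partner. Leaving out F0 B, Balb/c-2 A and CBA B together, a choice made after seeing the data, left 94 called genes and 82 whose means also stepped one way.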

How the data were processed

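Polyadenylated RNA of 12 tumour biopsies was sequenced. The authors deposited normalised signal for genes and repeat copies; per the submitters' processing notes, the tools were featureCounts 1.5.0-p3, HISAT2 2.0.5 and StringTie 1.3.3b, with the build mm10. How the values were normalised, stranded or multiply mapped is not given in the sources used here. In each column of deposited signal, 100% of values came out as whole reads (within 0.1 reads), so reads were recovered for edgeR 4.0.16 and DESeq2 1.42.0. The 684965 repeat rows were not used, and 0 sample columns were left out. Of 34436 gene rows, 34364 matched GENCODE M21 symbols.

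Genes reaching 10 scaled reads in 3 or more tumours were tested with limma 3.58.1 (R 4.3.3; trended, robust) on log2(value + 1), two-sided, with 10 residual degrees of freedom. A fold on this scale understates changes of low genes. The departure test is the F test of the quadratic and cubic contrasts. Chromosomes were tested with 100000 permutations. The error of the limma trend fit holds the spread between tumours of a passage. It also holds the distance of the passage means from the line. For the departure test, which fits every passage mean, the error is the spread between tumours of a passage. The chromosome p-values come from the permutations and not from such an error term. None of these p-values measures the spread between independent lineages. The scripts were tested on simulated data.

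The order of passages, the 43 gene lists and the members were chosen with earlier results of these data known. Named genes are the 8 steepest rises and falls among called genes that step one way (mean of at least 100 in the highest passage), the 4 of smallest adjusted p with a mean of at least 1000, the 3 rises and falls of smallest adjusted p that do not step one way and depart from the line, up to 3 called members per list, and 10 fixed genes; predicted genes were left out. Others are named where a count, window or shape is described, and were chosen after their values were seen. Promoter sets leave out chromosome 18. Alternatives covered pseudocounts, filters, scaling, tools, scores, flow cell, replicate block and leaving out tumours or passages.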

Additional observations from a re-analysis of the deposited data

How the results depend on the processing

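The count of 353 genes called for the trend, and of 210 that also stepped one way, stayed within 1.5 times under other pseudocounts, filters, quantile normalization, edgeR (245 and 166) and scores by listed position. It moved with DESeq2 (967 and 424), an exact rank test for ordered groups (80 and 78), the flow cell term (15 and 10), the first flow cell alone (137, all of which step one way), the second alone (0 by limma, 1175 at an unadjusted p under 0.05), without the F0 tumours (697 and 671), without the CBA tumours (68 each) and without F0 B, Balb/c-2 A and CBA B (94 and 82). Leaving out 1 tumour gave 125 to 366 trend calls, 94 to 217 that also stepped one way, 316 to 2299 departures, 1058 to 2160 genes stepping one way (1058 without Balb/c-2 B) and 16 to 32 genes without overlap (28 without Balb/c-2 A, 32 without Balb/c-2 C). Chromosomes called were 0, or 2 over genes with a mean of at least 100. The cause was not tested. With the replicate letter as a block, 230 genes were called; same-letter tumours correlated above 0.1 in 7 of 18 pairs (−0.407 to 0.478) and 6 of 12 tumours correlated best with their own letter, so the letters were not taken as pairs. Of the 40 named genes that were called, slopes reversed in the second flow cell alone for Col4a6 (1.10), Fzd8 (0.29), Tgfbi (0.0047), Ifi44l (−0.60) and Morc1 (−0.12), and without the F0 tumours for Ifi44l (−0.12). Among the 8 that were not called, they reversed in the second flow cell alone for Braf (−0.43), Mitf (−0.34) and Cd274 (−0.23), and without the F0 tumours for Mcm6 (0.21), Cdkn2a (−0.03), Mitf (−0.36) and Cd274 (−0.43). Braf also reversed with the flow cell term and in the first flow cell alone, and Ddx3y without F0 B, Balb/c-2 A and CBA B. Of the 40, 28 kept the call on leaving out any 1 tumour. edgeR lost 8 (Rasgrf1, Epha7, Snrpn, Insrr, Trim54, Magea3, Ifi44l and Rhox5), and the flow cell term lost 35. DESeq2 gave no adjusted p for 151 genes. Depth limits the ratios of genes with values near 0.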
